A study of Mus musculus with 51 samples.

Results

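The change in messenger RNA after gastric bypass in white adipose tissue (WAT) was set against the change in the liver of the same mice, gene by gene. Male C57Bl6 mice made obese by diet were studied 9 weeks after an operation, Roux-en-Y gastric bypass (RYGB), in which food passes from a small stomach pouch into the jejunum, or after a sham operation. Both groups received an elemental liquid diet and then returned to high-fat food. Food was limited for the sham mice to match their body weight to the RYGB group, and all mice were fasted overnight and killed in the morning, so the operation and the feeding history of the groups cannot be told apart. The WAT was subcutaneous. Libraries that carry the same animal code in both tissues gave 4 sham mice (W11, W14, W15 and W3) and 4 RYGB mice (R1, R2, R3 and R4), which is 16 of the 51 libraries of the series. The labels do not state that a shared code is a shared mouse, and the codes were taken as mice. Of 12690 genes in the WAT table and 10285 in the liver table, the 9707 found in both were tested.

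WAT stores triglyceride and, when fed, makes fatty acids from glucose, and it releases adipokines such as leptin and adiponectin. The liver makes most plasma proteins, oxidises fatty acids during a fast and turns them into ketone bodies under the control of the nuclear receptor PPARA. Both tissues switch between making and burning fat according to feeding and hormones, so that 1 operation can reach the same enzyme in both tissues or in either. A gene's tissue difference is used below for its RYGB minus sham change in WAT minus its RYGB minus sham change in liver, on the log2(CPM + 1) scale, where CPM is counts scaled to the library total. It is positive where RYGB moved the gene up in WAT relative to liver. On this scale changes at low CPM come out too small. A gene was called at an adjusted p below 0.05 (limma, Benjamini-Hochberg over all 9707 genes), "higher" and "lower" of a called gene refer to WAT against liver, and "rose" and "fell" are kept for genes called in the fit of that tissue alone. Values of single libraries are CPM in the order W11, W14, W15, W3 for sham and R1, R2, R3, R4 for RYGB, and ± is the standard error of a log2 change.

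The libraries carried their tissue's markers. Adiponectin (Adipoq) ran from 1459.1 to 3252.2 CPM in WAT and from 0.5 to 1.7 CPM in liver, while albumin (Alb) ran from 18704.6 to 93629.5 CPM in liver and from 54.1 to 272.6 CPM in WAT. Plin1, Lep and Retn, markers of fat cells, were listed in the WAT table and not in the liver table, so they were not tested here. The libraries differed in ways that moved with the groups. Across genes, each library's deviation from its tissue's mean correlated with transcript GC content at a Spearman rho of -0.32 to -0.062 in sham WAT and -0.13 to 0.27 in RYGB WAT, and of -0.44 to -0.28 in sham liver and -0.22 to 0.61 in RYGB liver. With transcript length the rho was 0.27 to 0.40 in sham WAT and -0.40 to 0.088 in RYGB WAT. The liver libraries of W11, W14, R2, R3 and R4 hold values in steps that imply 4220000 to 5120000 reads, and those of W15, W3 and R1 hold finer values whose depth is unknown. The part of these differences in single results was not tested, but every count of genes called for the tissue difference was also computed after removal of each library's trend with length and GC content and in the 5 mice with coarse liver values only.

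RYGB changed many genes differently in the 2 tissues. The tissue difference was called for 1250 genes, 327 of them higher in WAT than in liver (3.37% of all genes tested) and 923 lower (9.51%). In the same 8 mice, 1287 genes rose (13.3%) and 2268 fell (23.4%) in WAT, and 449 rose (4.63%) and 545 fell (5.61%) in liver. Among the 327 higher genes, 152 moved in opposite directions by at least 0.5 in each tissue, 69 moved mainly in WAT and 104 mainly in liver. Among the 923 lower genes these numbers were 504, 97 and 319. Of the 1250 genes, 84 were called in both tissues with opposite signs, and 232 were called in neither tissue alone. The values of WAT minus liver did not overlap between sham and RYGB mice for 1065 of the 1250 genes, and for 18.5% of all genes tested.

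The split between higher and lower depended on the scaling. The median tissue difference over all genes was -0.42, made of -0.19 in WAT and 0.27 in liver. Median-of-ratios scaling within each tissue moved it to -0.07 and gave 603 higher and 676 lower genes. Removal of the length and GC trend gave 742 higher and 668 lower genes. All 1250 genes kept their sign under both. The number called also depended on single mice, and was 378 without W15, 477 without W3, 526 without R2, 772 without R4 and 2189 without R1. The 994 calls in liver alone depended on them more, with 26 without W3, 44 without W15, 131 without R3, 185 without R2, 331 without R4, 338 without W14 and 3217 without R1, so each rise or fall in liver given below holds for the full set of 8 mice. In the 5 mice with coarse liver values 420 genes were called, 365 of them among the 1250.

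**Figure D1:**
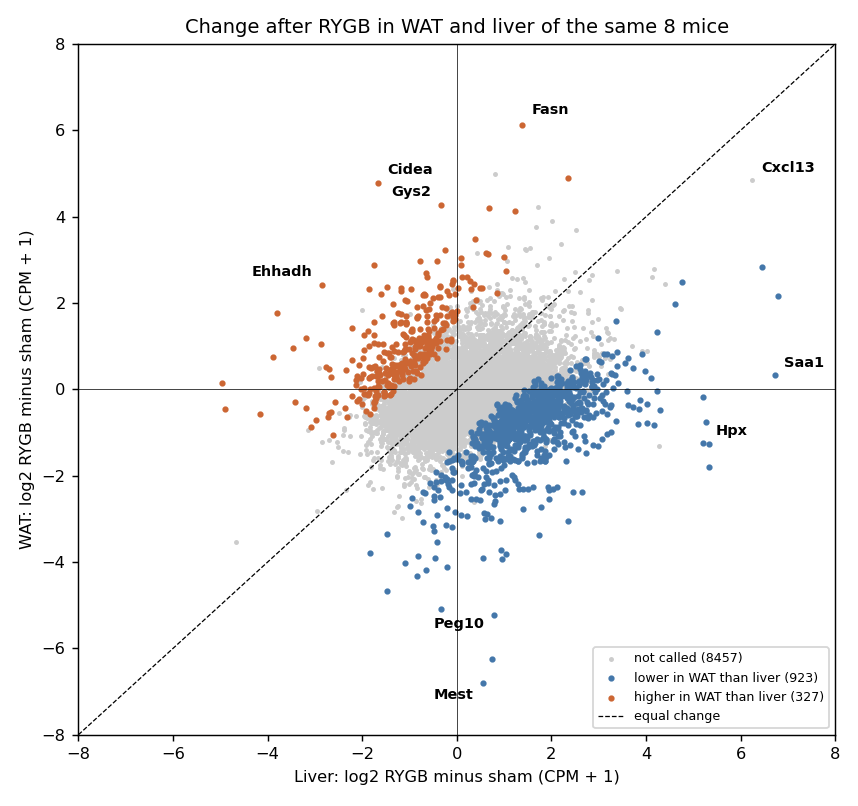
RYGB minus sham change of each of 9707 genes in liver (horizontal) and WAT (vertical) of the same 8 mice, on the log2(CPM + 1) scale, with the 327 genes called higher in WAT than in liver in orange and the 923 called lower in blue. Called genes lie away from the dashed line of equal change, in the upper left (Ehhadh, Cidea), near the vertical axis (Fasn, Mest) and at the lower right (Hpx) or far right (Saa1), while Cxcl13 rose in both tissues and was not called.

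Several enzymes of fatty acid synthesis rose in WAT more than they moved in liver. Of 18 genes of de novo lipogenesis tested, 7 were higher and 0 lower, with a median tissue difference of 0.89 against -0.42 over all genes. In WAT 11 of the 18 rose and 0 fell, and in liver 2 rose and 1 fell. The median change of the 18 was 1.70 in WAT and 1.46 in liver, so the fewer liver calls do not mean that these genes stayed level there. The median standard error over all genes was 0.21 in WAT and 0.44 in liver. Fatty acid synthase (Fasn), which builds palmitate from malonyl-CoA, stood in WAT at 136.9, 90.4, 95.6 and 149.2 CPM in sham mice and at 18832.8, 6123.8, 3844.1 and 9722.5 CPM in RYGB mice. In liver it stood at 4.4, 5.0, 2.5 and 2.9 CPM and at 8.2, 8.0, 15.3 and 14.1 CPM. The groups did not overlap in either tissue. Fasn rose in WAT by 6.12 ± 0.43 and differed in liver by 1.38 ± 0.41 (adjusted p = 0.0518, limma), and its tissue difference was 4.74 ± 0.57 (adjusted p = 0.000628, limma).

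Elovl6, Acly, Acss2 and Me1 were higher as well, by less than Fasn. Elovl6, which lengthens palmitate to stearate, was at 19.1, 20.9, 19.5 and 13.7 CPM in sham WAT and at 849.9, 206.4, 142.0 and 621.3 CPM in RYGB WAT, with a tissue difference of 3.54 ± 0.53. Its liver values overlapped, from 55.1 to 99.2 CPM in sham and from 92.0 to 150.2 CPM in RYGB mice. The cytosolic suppliers of acetyl-CoA were higher, ATP citrate lyase (Acly) by 2.58 ± 0.47 and acetyl-CoA synthetase (Acss2) by 2.55 ± 0.39, and so was malic enzyme (Me1), a source of NADPH, by 2.5 ± 0.52. In WAT, R1 had the highest value of Fasn, Elovl6, Acly, Acss2 and Me1, with 4717.6 CPM for Acly against 284.4, 344.9 and 1259.3 CPM in R2, R3 and R4. Thrsp, a nuclear protein tied to lipogenic gene expression, rose in both tissues, by 4.90 ± 0.52 in WAT and 2.35 ± 0.55 in liver, and was still called for the difference (2.55 ± 0.72, adjusted p = 0.0362, limma). The liver of R5, another RYGB mouse with no WAT partner, held 1.3 CPM of Thrsp. That lay within the sham livers (0.8 to 1.7 CPM) and below the paired RYGB livers (4.7 to 29.1 CPM).

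In Elovl5, an elongase of polyunsaturated fatty acids, the difference lay on the liver side. Its WAT values overlapped (0.30 ± 0.19) and it fell in liver by 2.12 ± 0.55, from 2479.1 to 7493.3 CPM in sham to 415.0 to 2587.8 CPM in RYGB mice. Acetyl-CoA carboxylase (Acaca), which makes malonyl-CoA, rose in both tissues, by 2.72 ± 0.38 in WAT and 2.49 ± 0.69 in liver, with a tissue difference of 0.23 ± 0.77 that was not called. Its liver values were 14.1, 10.2, 0.7 and 1.1 CPM in sham and 18.9, 21.8, 29.6 and 42.2 CPM in RYGB mice, with 11.6 CPM in R5, within the sham range. The 2 low sham values came from W15 and W3, which have the finer liver libraries. Scd1, the main stearoyl-CoA desaturase, had a tissue difference of -1.87 ± 0.63 with an adjusted p of 0.0644 (limma), and its WAT values overlapped widely, from 51100.6 to 66835.5 CPM in sham and from 32042.9 to 117987.6 CPM in RYGB mice. In liver its groups did not overlap, with 724.0 to 3903.2 CPM in sham and 3971.7 to 35375.3 CPM in RYGB mice. That change of 2.15 ± 0.69 was not called (adjusted p = 0.064, limma). In the 5 mice with coarse liver values, 4 of the 18 lipogenic genes were higher and 0 lower.

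**Figure D2:**
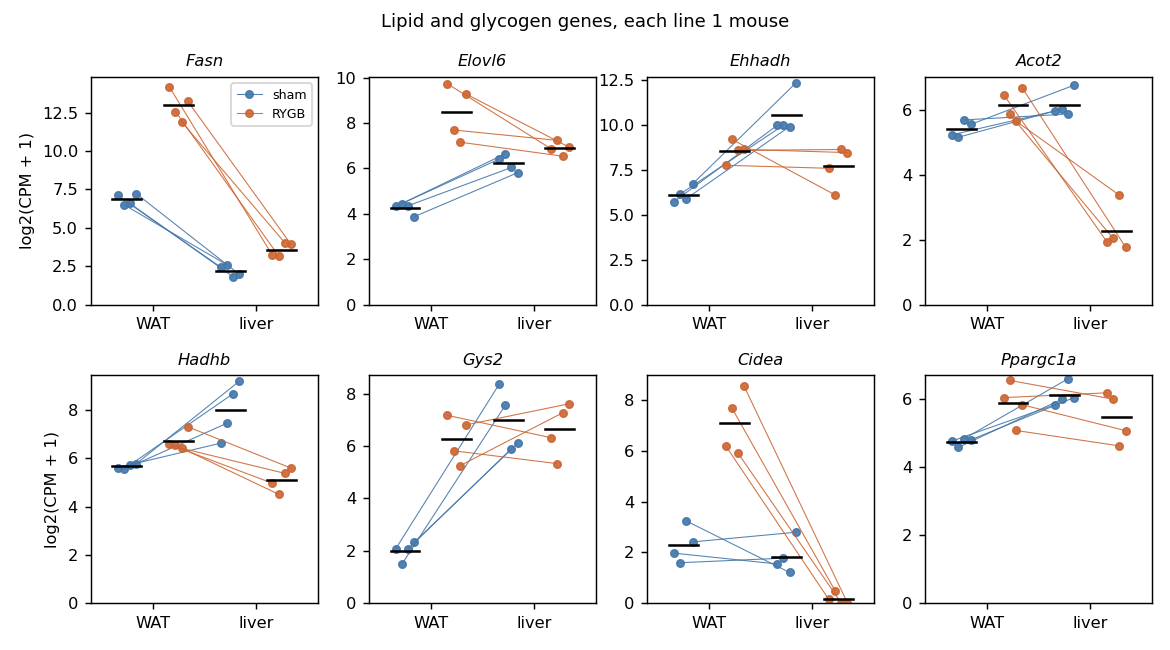
Level of 8 lipid and glycogen genes on the log2(CPM + 1) scale in WAT and liver, each line joining the 2 tissues of 1 mouse (blue sham, orange RYGB) and black bars giving group means of 4 mice. Fasn, Elovl6, Gys2 and Cidea separate the groups mainly in WAT, Acot2 mainly in liver, and Ehhadh and Hadhb in both with opposite direction.

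Genes of fatty acid oxidation moved apart in the 2 tissues. Of 22 genes of fatty acid oxidation, ketone synthesis and other PPARA targets, 9 were higher and 1 was lower, with a median tissue difference of 1.22. In WAT 12 rose and 4 fell, and in liver 0 rose and 9 fell. Ehhadh, the peroxisomal bifunctional enzyme of beta-oxidation, was at 51.9, 69.9, 58.4 and 103.4 CPM in sham WAT and at 214.1, 585.9, 380.5 and 395.6 CPM in RYGB WAT. In liver it was at 1000.1, 1006.8, 955.8 and 5120.4 CPM in sham and at 190.4, 67.7, 394.5 and 349.8 CPM in RYGB mice. The groups were apart in both tissues in opposite order, and Ehhadh rose by 2.42 ± 0.31 in WAT, fell by 2.85 ± 0.65 in liver and differed by 5.27 ± 0.65 between tissues (adjusted p = 0.000692, limma).

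Hadhb, a subunit of the mitochondrial trifunctional protein, behaved likewise, with a rise of 1.05 ± 0.20 in WAT, from 45.5 to 53.7 CPM in sham to 84.7 to 158.0 CPM in RYGB mice. In liver Hadhb fell by 2.88 ± 0.51, from 98.3, 175.4, 411.7 and 590.2 CPM to 30.3, 21.8, 40.6 and 47.4 CPM. The acyl-CoA thioesterase Acot2, which frees fatty acids from CoA in mitochondria, fell by 3.88 ± 0.43 in liver, from 61.3, 63.7, 57.3 and 106.7 CPM to 2.8, 3.1, 9.3 and 2.4 CPM, and rose by 0.75 ± 0.24 in WAT, where the groups overlapped. Its near relative Acot1, the cytosolic form, had a tissue difference of 5.58 ± 0.96, and reads of the 2 may have been divided uncertainly by the counting. Sham WAT held 0.6 to 1.1 CPM of Acot1, so it was listed in WAT through the RYGB mice, and its rise there is no separate evidence. The acyl-CoA dehydrogenases of long and medium chains were higher by 2.52 ± 0.46 (Acadl) and 1.96 ± 0.42 (Acadm). Acadm rose in WAT by 0.59 ± 0.19 and fell in liver by 1.37 ± 0.38.

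In other members 1 tissue carried the difference. Cyp4a14, a fatty acid omega-hydroxylase whose family has near-identical members, was at 0.8 to 1.9 CPM in every WAT library and fell by 4.96 ± 0.85 in liver, from 5201.0, 4333.6, 3971.8 and 10826.1 CPM to 149.3, 30.4, 1207.8 and 182.0 CPM. The liver library of R5, the RYGB mouse with no WAT partner, held 2824.5 CPM of Cyp4a14 and 847.1 CPM of Ehhadh, above the other RYGB livers. R5 lay within the sham liver range, outside that of the paired RYGB livers, for Acot1, Hadhb, Acadm, Slc27a2, Retsat and Elovl5, and for the lipogenic genes Fasn, Elovl6, Thrsp and Acaca. The same held for genes named below, such as Lcn2, Stat3, Ahsg, Marco, Lyz2, C1qc, Hip1, Pcolce2 and Slc1a4. R5 lay within the paired RYGB range, outside that of sham, for genes such as Cd36, Serpina1e, C8a, Arntl, Hspa5, Ndrg1 and Asns. Acaa1b, a peroxisomal thiolase, rose by 2.97 ± 0.29 in WAT and overlapped in liver. Fgf21, a fasting hormone made by the liver, fell in both tissues, by 1.05 ± 0.29 in WAT and 2.61 ± 0.41 in liver, and its tissue difference of 1.56 ± 0.45 (adjusted p = 0.0402, limma) is counted among the higher genes at levels of 11.9 CPM or less.

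Vnn1, a pantetheinase and PPARA target, fell in both tissues, by 3.53 ± 0.34 in WAT and 4.67 ± 0.58 in liver, and its difference was not called (1.14 ± 0.49, adjusted p = 0.127, limma). With trends in length and GC content removed, 13 of the 22 genes were higher and 1 lower, and in the 5 mice with coarse liver values 5 were higher and 0 lower.

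Of 23 genes of triglyceride synthesis, storage and lipolysis, 4 were higher and 2 lower (median 1.03). These are 17.4% higher, against 3.37% of all genes, and 8.7% lower, near the 9.51% of all genes. In WAT 5 rose and 3 fell, and in liver 0 rose and 5 fell. The count of 4 higher was 2 without W14, W3 or R2 and 8 without R1, and the count of 2 lower was 0 without W14, W15, W3, R2 or R4. With scaling 6 were higher and 1 lower, and with length and GC trends removed 9 and 0. Outside this list, several single genes of lipid and CoA metabolism had large positive differences. Glycerol kinase (Gyk), which phosphorylates glycerol for reuse, rose by 2.32 ± 0.49 in WAT, from 10.0 to 16 CPM in sham to 25.8, 106.9, 45.1 and 165.7 CPM in RYGB mice, and fell by 1.85 ± 0.25 in liver, from 837.3 to 1046.7 CPM to 230.3 to 311.6 CPM. Slc27a2, a very long-chain acyl-CoA synthetase and fatty acid transporter, rose by 2.38 ± 0.65 in WAT and fell by 1.47 ± 0.38 in liver. Pantothenate kinase (Pank1), the first step of CoA synthesis, rose by 2.88 ± 0.39 in WAT, from 4.4 to 5.0 CPM in sham to 41.1, 24.7, 26.0 and 101.6 CPM in RYGB mice. Its liver values overlapped through R1, which held 1921.1 CPM against 348.5 to 580.0 CPM in the other RYGB mice and 1552.4 to 3190.4 CPM in sham mice.

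Chpt1, which makes phosphatidylcholine, moved in opposite directions without overlap in either tissue. It rose in WAT by 1.42 ± 0.19, from 1156.8 to 1522.2 CPM to 3172.7 to 4703.2 CPM, and fell in liver by 2.22 ± 0.31, from 1762.3 to 3470.0 CPM to 522.5 to 678.2 CPM, a tissue difference of 3.64 ± 0.36 that ran from 3.29 to 4.04 over 18 other settings. Retsat, a retinol saturase, rose by 1.19 ± 0.22 in WAT and fell by 3.18 ± 0.87 in liver. Osbpl3, an oxysterol-binding protein relative, fell by 4.89 ± 0.40 in liver, from 126.9, 112.4, 61.6 and 50.5 CPM to 1.4 to 2.5 CPM, while its WAT values overlapped between 2.2 and 8.2 CPM. The unpaired RYGB liver R5 held 28.6 CPM of Osbpl3, between the groups. Cd36, the fatty acid translocase and a member of the triglyceride list, fell in both tissues, by 0.93 ± 0.23 in WAT and 2.38 ± 0.41 in liver, with a difference of 1.45 ± 0.49 that was not called (adjusted p = 0.0637, limma) but was called after scaling (adjusted p = 0.0335).

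Nearly all respiratory chain genes tested rose in WAT and none was called in liver. Of 30 respiratory chain and ATP synthase subunits, 29 rose and 0 fell in WAT, and 0 rose and 0 fell in liver. Their median change was 1.81 in WAT and 0.69 in liver, and 6 were higher and 0 lower for the difference, with a median of 0.87. Cytochrome c (Cycs), which carries electrons between complexes III and IV, was at 3.0, 2.7, 2.4 and 4.6 CPM in sham WAT and at 15.8, 39.8, 8.9 and 26.2 CPM in RYGB WAT. In liver it was at 7.9, 9.5, 11.2 and 10.6 CPM and at 6.5, 3.7, 2.3 and 3.3 CPM, so that the groups did not overlap in either tissue, in opposite order. The tissue difference of Cycs was 3.52 ± 0.53 (adjusted p = 0.00203, limma), with a liver change of -1.18 ± 0.40 that was not called (adjusted p = 0.0714, limma).

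The Rieske protein of complex III (Uqcrfs1) rose by 2.12 ± 0.30 in WAT, from 145.2, 140.3, 156.8 and 184.0 CPM to 647.7, 1052.2, 358.0 and 879.3 CPM, and overlapped in liver between 136.9 and 337.1 CPM. Ndufa4, Cox7b, Cox6c and Cox5a, subunits assigned to cytochrome c oxidase, had tissue differences of 2.49 ± 0.42, 2.5 ± 0.46, 2.45 ± 0.47 and 1.86 ± 0.43. In WAT the lowest RYGB value of these 6 genes was that of R3, and it lay above all sham values. With the length and GC trends removed, 15 of the 30 subunits were higher and 0 lower, and with scaling 11 and 0.

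Cidea, a lipid droplet protein typical of brown and beige fat cells, had the largest positive difference of the genes named. It was at 2.9, 2.0, 8.4 and 4.3 CPM in sham WAT and at 72.8, 206.5, 59.2 and 372.3 CPM in RYGB WAT, and at 1.3 to 5.9 CPM in sham liver and 0.0 to 0.4 CPM in RYGB liver. It rose by 4.79 ± 0.57 in WAT and fell by 1.67 ± 0.39 in liver (tissue difference 6.46 ± 0.69, adjusted p = 0.000303, limma). A gene was listed only with at least 1 CPM in 4 or more libraries of a table, and in liver Cidea reached that through the sham mice alone. Its fall in liver, which is part of the tissue difference, is therefore no separate evidence. The coactivator Ppargc1a, which drives mitochondrial gene expression, rose in WAT by 1.13 ± 0.27, with 22.9 to 27.6 CPM in sham and 64.9, 92.5, 32.7 and 55.9 CPM in RYGB mice, and its tissue difference was 1.78 ± 0.39. Ucp1, the uncoupling protein of these cells, was in the WAT table only, at 0.4 to 35 CPM in sham and 18.6 to 2927.4 CPM in RYGB mice, and has no liver value to compare.

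Among glucose genes, 3 of 16 were higher and 0 lower. Liver-type glycogen synthase (Gys2) rose in WAT by 4.27 ± 0.40, from 3.2, 1.8, 3.2 and 4.0 CPM to 143.4, 55.4, 36.9 and 111.1 CPM. Its liver values overlapped, from 58.6 to 326.4 CPM in sham and from 39.2 to 195.2 CPM in RYGB mice, and the tissue difference was 4.62 ± 0.73 (adjusted p = 0.00278, limma). Lactate dehydrogenase A (Ldha) rose by 1.53 ± 0.23 in WAT, and its liver values ran from 603.8 to 4355.3 CPM in sham and from 220.0 to 2235.4 CPM in RYGB mice. Ppargc1a is the third.

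Promoter windows of 300 bases, 250 before and 50 after the start, were taken from RefSeq on GRCm38.p6 for 76 of the 97 genes named here and searched on both strands for 5 short motifs. The cAMP element TGACGTCA lay in 3.31% of windows of higher genes, 1.54% of lower genes and 3.08% of all genes tested. The E-box CACGTG lay in 8.28%, 7.57% and 10.1%, the D-box TTATGTAA in 1.32%, 0.549% and 0.533%, the sterol element TCACNCCAC in 1.32%, 1.32% and 1.13% and the heat shock element GAANNTTC in 3.97%, 5.82% and 5.80%. Over all windows of the RefSeq table the shares were 1.79%, 7.15%, 0.938%, 1.24% and 7.86% for the cAMP element, E-box, D-box, sterol element and heat shock element. Of the respiratory chain genes named above, Cycs (chr6:50566520-50566819, minus strand) and Uqcrfs1 (chr13:30545267-30545566, minus strand), each hold 1 cAMP element, while Cox7b holds a D-box, Cox5a a heat shock element and Ndufa4 none of the 5. The elongase Elovl5 (chr9:77917115-77917414, plus strand) holds a cAMP element, an E-box and a heat shock element. Ehhadh (chr16:21787785-21788084, minus strand) holds 1 sterol element. They are printed 5' to 3' with the motifs in capitals, as examples of genes that rose in WAT (Cycs, Uqcrfs1), fell in liver (Elovl5) or did both (Ehhadh). A match shows the letters and not a bound site.
Cycs: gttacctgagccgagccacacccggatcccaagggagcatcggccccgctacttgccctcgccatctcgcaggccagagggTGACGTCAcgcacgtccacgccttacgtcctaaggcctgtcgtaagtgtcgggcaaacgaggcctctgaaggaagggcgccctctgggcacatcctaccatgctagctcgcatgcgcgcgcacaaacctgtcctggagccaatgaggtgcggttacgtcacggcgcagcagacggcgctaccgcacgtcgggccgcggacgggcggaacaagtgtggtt
Uqcrfs1: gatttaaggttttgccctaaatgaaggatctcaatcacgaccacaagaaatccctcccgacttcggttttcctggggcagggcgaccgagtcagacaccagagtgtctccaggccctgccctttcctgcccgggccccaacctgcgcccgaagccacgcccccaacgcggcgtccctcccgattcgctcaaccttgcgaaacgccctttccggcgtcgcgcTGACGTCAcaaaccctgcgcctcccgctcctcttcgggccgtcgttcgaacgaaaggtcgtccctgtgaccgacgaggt
Elovl5: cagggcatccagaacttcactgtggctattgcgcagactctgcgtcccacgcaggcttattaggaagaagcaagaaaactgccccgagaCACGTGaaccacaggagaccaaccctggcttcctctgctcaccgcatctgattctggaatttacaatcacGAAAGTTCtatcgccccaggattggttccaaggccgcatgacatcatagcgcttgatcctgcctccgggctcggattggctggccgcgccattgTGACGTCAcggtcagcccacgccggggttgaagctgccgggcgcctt
Ehhadh: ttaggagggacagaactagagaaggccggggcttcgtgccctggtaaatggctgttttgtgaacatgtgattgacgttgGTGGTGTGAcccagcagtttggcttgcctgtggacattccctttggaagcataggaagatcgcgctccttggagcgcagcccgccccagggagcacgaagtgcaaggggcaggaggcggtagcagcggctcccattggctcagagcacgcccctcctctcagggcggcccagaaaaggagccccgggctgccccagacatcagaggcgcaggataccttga

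The genes with the largest negative differences included some that fell in WAT, some that rose in liver and some that did both. Among those that fell in WAT, Mest, an imprinted gene whose expression goes with fat cell enlargement, was at 2296.0, 1935.9, 2444.9 and 705.4 CPM in sham WAT and at 7.8, 1.8, 41.6 and 45.0 CPM in RYGB WAT. In liver it stayed between 5.6 and 26.7 CPM with overlapping groups, and its tissue difference was -7.37 ± 0.96 (adjusted p = 0.000871, limma). All RYGB values in WAT lay far below all sham values.

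Other imprinted genes fell in WAT as well. Peg10 was at 375.0, 372.4, 449.0 and 34.5 CPM in sham and at 2.8 to 6.6 CPM in RYGB WAT, where W3 stood apart from the other sham mice, and its tissue difference was -6.01 ± 0.79. Peg3, a zinc finger gene, fell by 3.91 ± 0.30 in WAT, from 3917.8 to 4776.4 CPM to 191.0 to 523.3 CPM, with a tissue difference of -3.45 ± 0.51. W3 also had the lowest sham WAT value of Mest and Npr3. Npr3, the natriuretic peptide clearance receptor, fell by 4.32 ± 0.51 in WAT, from 3507.1, 2690.7, 3002.4 and 1059.6 CPM to 63.2 to 298.5 CPM. In WAT Slc8a1, a sodium-calcium exchanger, fell by 3.93 ± 0.36 and Adap2, an ARF GTPase-activating protein, fell by 3.81 ± 0.22, with tissue differences of -4.89 ± 0.46 and -4.85 ± 0.66. RYGB WAT held 0.2 to 1.2 CPM of Slc8a1, so it was listed in WAT through the sham mice, and its fall there is no separate evidence.

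Several matrix genes were lower in WAT than in liver, with more calls in WAT than in liver, as over all genes. Of 16 TGF-beta response and matricellular genes, 0 were higher and 6 lower (median -1.24), and in WAT 0 rose and 10 fell while in liver 0 rose and 1 fell. The thrombospondins fell in WAT, where Thbs1 fell by 3.85 ± 0.32 and Thbs2 fell by 4.19 ± 0.38, with tissue differences of -3.03 ± 0.57 and -3.54 ± 0.51. Of 22 collagens and other matrix genes, 0 were higher and 8 lower (36.4%, against 9.51% of all genes, median -1.28), and in WAT 0 rose and 6 fell while in liver 1 rose and 1 fell. Over all genes 23.4% fell in WAT and 5.61% fell in liver, so the share of these 22 that fell in WAT was near that of all genes. The count of 8 lower matrix genes was 2 without W15, 3 without W3, 3 without R2, 4 without R4, 5 without W14 and 5 without R3, and 3 in the 5 mice with coarse liver values.

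Lysyl oxidase (Lox), which cross-links collagen, fell by 3.17 ± 0.32 in WAT, from 671.0 to 1329.3 CPM to 67.6 to 195.3 CPM, and was at 6.7 CPM or less in liver. Prelp, a leucine-rich proteoglycan, fell by 3.38 ± 0.40 in WAT and changed by 1.73 ± 0.56 in liver, which was not called (adjusted p = 0.0664, limma). Osteonectin (Sparc) instead rose in liver by 2.05 ± 0.50, from 32.0, 21.8, 6.4 and 6.9 CPM to 73.2, 46.2, 81.3 and 43.7 CPM, and overlapped in WAT. The proteoglycan Bgn fell in WAT by 1.52 ± 0.28, and fibronectin (Fn1) was called for the difference (-2.69 ± 0.62) with neither tissue called alone, its liver values being 66.2 to 263.2 CPM in sham and 115.8, 577.5, 1304.6 and 793.3 CPM in RYGB mice.

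**Figure D3:**
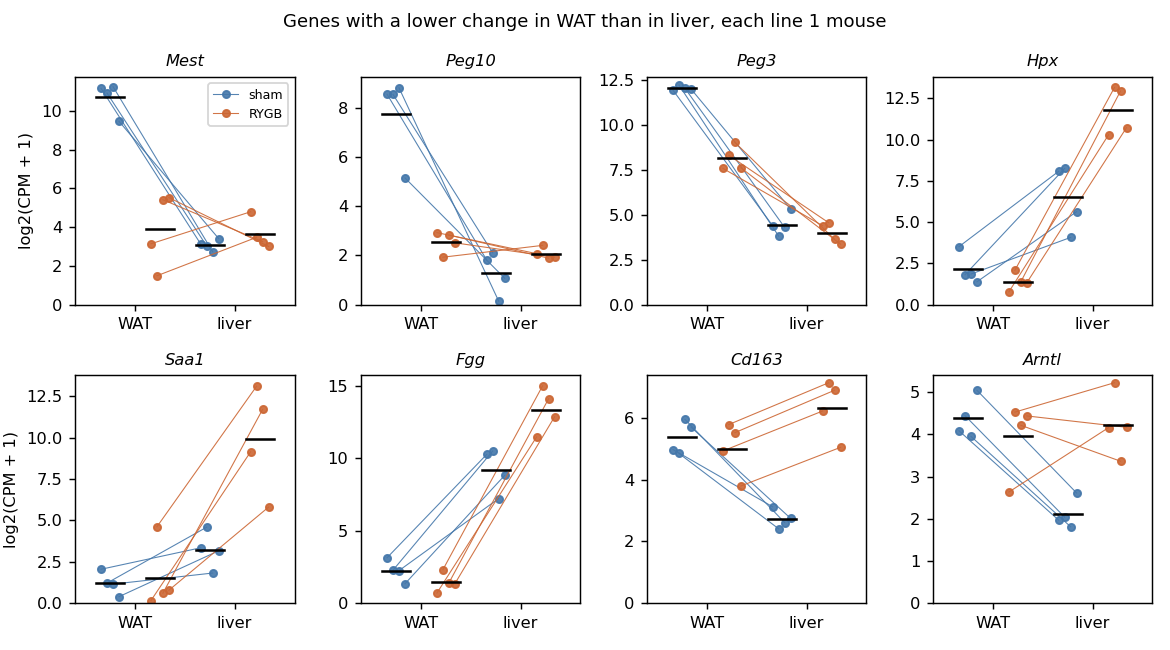
Level of 8 genes with a lower change in WAT than in liver on the log2(CPM + 1) scale, each line joining the 2 tissues of 1 mouse (blue sham, orange RYGB) and black bars giving group means of 4 mice. Mest, Peg10 and Peg3 separate the groups in WAT, and Hpx, Saa1, Fgg, Cd163 and Arntl separate them in liver.

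Most plasma protein genes tested rose in liver, and few moved in WAT. Of 15 acute phase, fibrinogen and coagulation genes, 0 were higher and 10 lower, with a median tissue difference of -2.51. In liver 10 rose and 0 fell, and in WAT 2 rose and 1 fell. Hemopexin (Hpx), which binds free haem, was at 269.2, 304.2, 15.8 and 48.5 CPM in sham liver and at 1251.8, 9179.1, 7873.9 and 1691.3 CPM in RYGB liver, and at 0.7 to 10.4 CPM in WAT. The groups were apart in liver, and the tissue difference was -6.03 ± 0.78 (adjusted p = 0.000871, limma). The unpaired RYGB liver R5 held 330.4 CPM of Hpx, close to the higher sham livers.

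Serum amyloid A1 (Saa1), the major acute phase protein, rose in liver by 6.72 ± 1.25, from 9.1, 23.0, 2.5 and 7.9 CPM to 563.9, 8846.0, 3336.1 and 54.6 CPM, so the RYGB livers spread over a wide range, and R5 held 15.8 CPM, within the sham range. Saa1 has near-identical relatives. The 3 fibrinogen chains Fga, Fgb and Fgg rose in liver by 4.03 ± 0.76, 2.80 ± 0.50 and 4.16 ± 0.83, and their tissue differences were -4.38 ± 0.67, -3.39 ± 0.53 and -4.98 ± 0.66. Fgg was at 1232.7, 1449.2, 147.8 and 450.9 CPM in sham liver and at 2842.4, 32888.3, 17681.9 and 7461.9 CPM in RYGB liver. R2 was the highest for Saa1, Hpx and all 3 fibrinogen chains, and within the sham mice W15 and W3 lay below W11 and W14 for Hpx and for the fibrinogen chains. R5 held 2248.4 CPM of Fgg, below R1 and above the sham livers.

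Orm1, an orosomucoid with near-identical relatives, and lipocalin 2 (Lcn2) show a difference of degree. Orm1 rose in both tissues, by 2.17 ± 0.42 in WAT and 6.79 ± 0.87 in liver, and was called lower by 4.62 ± 0.68. Lcn2 rose by 6.46 ± 1.14 in liver, and in WAT it stood at 372.4 CPM in R2 and at 11.6 CPM or less in the other 7 mice. Sham liver held at most 1.7 CPM of Lcn2, so it was listed in liver through the RYGB mice, and its rise there is no separate evidence. Stat3, the factor that carries interleukin 6 signals to acute phase genes, rose in liver by 2.11 ± 0.45 and overlapped in WAT (tissue difference -2.51 ± 0.46). The inter-alpha-trypsin inhibitor chain Itih3 rose in liver by 5.21 ± 0.93.

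Complement genes took the same direction. Of 12 tested, 9 were lower and 1 higher, with a median of -2.61, and 10 rose in liver and 0 fell, whereas 2 rose and 2 fell in WAT. The count of 9 was 5 without W15. C6, part of the membrane attack complex, fell by 3.05 ± 0.57 in WAT, from 52.8, 88.1, 39.2 and 11.3 CPM to 1.5 to 7.0 CPM, and rose by 2.36 ± 0.48 in liver, from 69.8, 155.3, 32.2 and 126.0 CPM to 248.9, 373.5, 524.4 and 657.0 CPM. Its tissue difference was -5.41 ± 0.65 (adjusted p = 0.000628, limma). C8a, C1s1 and C4b rose in liver by 2.26 ± 0.55, 1.97 ± 0.46 and 2.97 ± 0.63, and the C1 inhibitor Serping1 by 2.45 ± 0.62. The call of C4b did not pass after trend removal (adjusted p = 0.0515, limma).

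C3, the central component, rose in both tissues, by 2.45 ± 0.44 in WAT and 4.40 ± 0.82 in liver, and was not called for the difference (-1.95 ± 0.83, adjusted p = 0.124, limma). The higher member was Cfd, or adipsin, a protease made by fat cells, which rose in WAT by 2.13 ± 0.47, from 1790.0, 2125.7, 2239.3 and 4254.3 CPM to 12986.8, 25600.3, 5185.3 and 7640.6 CPM. Lbp, which binds bacterial lipopolysaccharide, moved in opposite directions, with a fall of 2.37 ± 0.50 in WAT and a rise of 2.64 ± 0.57 in liver. Its values were 22.5 to 84.3 CPM and 3.4 to 16.7 CPM in sham and RYGB WAT, and 8.7 to 15.8 CPM and 27.3, 174.2, 183.6 and 47.8 CPM in sham and RYGB liver.

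Other liver genes had differences as large. Cyp2c70, which makes muricholic acids and belongs to a family of near-identical genes, rose by 5.34 ± 0.51 in liver, from 48.4, 100.1, 57.0 and 16.9 CPM to 2623.3, 3033.5, 1066.2 and 1629.4 CPM. It fell by 1.79 ± 0.37 in WAT, where only sham mice reached 1 CPM, so that it was listed there through them alone. Its tissue difference was -7.13 ± 0.55 (adjusted p = 6.81e-05, limma). R5 held 821.1 CPM, nearer to the RYGB than to the sham livers. Serpina1e, an antitrypsin of a multigene family, rose by 5.21 ± 0.87 in liver. Scara5, a ferritin receptor, was at 2.6 CPM or less in sham liver and at 63.3, 181.2, 64.0 and 19.8 CPM in RYGB liver, and fell in WAT by 1.26 ± 0.24, from 39.4 to 52.2 CPM to 12.8 to 24.5 CPM. Of the sham livers only W14 reached 1 CPM, so Scara5 was listed in liver through the RYGB mice. Its separation in liver is no separate evidence. In WAT, transcripts typical of hepatocytes were at low levels that differed between groups, which moves with the WAT side of Cyp2c70, C8a and the hepatocyte glycoprotein Ahsg. Alb was at 62.7 to 272.6 CPM in sham and at 54.1 to 65.6 CPM in RYGB WAT, and Ahsg at 1.4 to 12.3 CPM and 0.5 to 1.7 CPM, with W11 highest. The whole hepatocyte list of 14 genes summed to 561.2 to 1688.3 CPM in sham and 2956.6 to 16816.4 CPM in RYGB WAT, where Cyp2e1 made up most of the sum, and 13 of its genes are in the WAT table. The part of these transcripts in the results was not tested.

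Many macrophage genes rose in liver, while in WAT the shares that rose and fell were near those of all genes. Of 18 genes tested, 0 were higher and 7 lower (median -1.60). In liver 9 rose and 0 fell, and in WAT 3 rose and 4 fell. Over all genes 4.63% rose and 5.61% fell in liver, and 13.3% rose and 23.4% fell in WAT. Cd163, a haemoglobin scavenger receptor of resident macrophages, was at 7.7, 4.3, 5.1 and 5.7 CPM in sham liver and at 74.2, 141.0, 119.0 and 32.2 CPM in RYGB liver, with overlap in WAT between 12.9 and 61.3 CPM (tissue difference -3.98 ± 0.44, adjusted p = 0.000451, limma). Csf1r, the receptor for macrophage colony-stimulating factor, rose in liver by 3.83 ± 0.71, from 0.2 to 4.6 CPM to 11.6, 28.5, 147.6 and 46.5 CPM. Emr1 (F4/80), Lyz2 (lysozyme) and C1qc rose in liver by 2.37 ± 0.38, 4.11 ± 0.82 and 2.64 ± 0.49.

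In these whole tissues, more cells of a type and more RNA per cell cannot be told apart. In R5, Cd163 was at 15 CPM, Csf1r at 5.3 CPM and Emr1 at 17.5 CPM, of which the first 2 lay between the groups, nearer to sham, and Emr1 lay below all sham livers. The count of 7 lower macrophage genes was 4 without W15, 4 without W3, and 2 in the 5 mice with coarse liver values. The macrophage genes summed to 313.5 to 629.3 CPM in sham and 867.2 to 1927.9 CPM in RYGB liver, without overlap (exact permutation test over the 8 mice, two-sided p = 0.0286, the smallest that 4 against 4 allows, and 0.089 after adjustment over 28 such sums). In WAT the same sum was 7362 to 10465.2 CPM in sham and 15719.7 to 21488.3 CPM in RYGB mice, also without overlap and with the same p-values (exact permutation test). The list includes Lpl, which is on the white adipocyte list too, so the WAT sum does not stand for macrophages alone. The share of Lpl was not tested. Cd163, Csf1r, Emr1, Lyz2 and C1qc overlapped in WAT, with Lyz2 at 297.3 to 482.9 CPM in sham and 324.4 to 664.5 CPM in RYGB mice. Marco, a scavenger receptor, and Cxcl13, a chemokine for B cells, rose in both tissues. Marco reached 1 CPM in WAT only in RYGB mice and was listed through them alone, so its separation there is no separate evidence. The same holds in liver, where too few sham mice reached 1 CPM of Marco for a listing without the RYGB mice. Cxcl13 rose by 4.84 ± 0.38 in WAT, from 0.9 to 3.5 CPM to 45.5 to 132.7 CPM, and by 6.24 ± 0.96 in liver, from 1.5 to 15.6 CPM to 64.1 to 2076.1 CPM, with 5.0 CPM in R5. Of 5 endothelial genes tested, 1 rose in liver, Pecam1 by 2.53 ± 0.51, and their sum there overlapped, at 165.4 to 213.6 CPM in sham and 146.0 to 287.5 CPM in RYGB mice.

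Of 19 chaperones of the endoplasmic reticulum, 8 rose in each tissue, 2 fell in WAT and 0 fell in liver. For the tissue difference 5 were lower and 1 higher (median -1.09), and this rested on single mice. The count of 5 was 0 without W15, 1 without W3, R2 or R3, 2 without R4 and 8 without R1. Hyou1, a chaperone of the lumen, stayed between 55.1 and 64.3 CPM in WAT and was at 9.6, 8.8, 0.8 and 2.0 CPM in sham liver and 8.3, 71.6, 261.2 and 67.0 CPM in RYGB liver, where R1 lay within the sham range. Xbp1, the factor that induces these chaperones, rose in liver by 2.00 ± 0.50, and Sdf2l1 by 3.61 ± 0.80. Hspa5 (BiP), the main chaperone of the group, had a tissue difference of -2.42 ± 0.69 (adjusted p = 0.0377, limma), and Dnajb9, its co-chaperone, was the higher gene, with a rise of 1.07 ± 0.33 in WAT.

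Of 11 genes of the amino acid stress response, 3 were lower and 1 higher, with 5 lower without R1 and 1 lower in the 5 mice with coarse liver values. Asparagine synthetase (Asns), a target of ATF4, rose in liver by 3.55 ± 0.48, from 1.0, 0.5, 0.1 and 0.1 CPM to 7.7, 31.4, 17.0 and 12.4 CPM, and Atf4 rose in liver by 1.74 ± 0.44. Fgf21, described above, was the higher gene, and Trib3 the third lower one. R5 held 8.1 CPM of Asns, with the RYGB livers. Of the sham livers only W11 reached 1 CPM of Asns, so it was listed in liver through the RYGB mice. Its rise there is no separate evidence.

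Several genes moved in opposite directions with calls in both tissues. Hip1, an endocytic adaptor, fell by 2.25 ± 0.23 in WAT, from 166.6 to 316.7 CPM to 40.1 to 70.7 CPM, and rose by 2.12 ± 0.45 in liver, from 0.8 to 3.1 CPM to 7.4 to 18.0 CPM. Ndrg1, a stress and hypoxia gene, fell by 2.30 ± 0.21 in WAT, from 516.1 to 616.9 CPM to 73.2 to 140.3 CPM, and rose by 2.04 ± 0.53 in liver, from 0.4 to 6.9 CPM to 9.2 to 20.1 CPM. The amino acid carrier Slc1a4 and the collagen-processing enhancer Pcolce2 behaved likewise, with tissue differences of -4.28 ± 0.42 and -4.83 ± 0.63. The liver levels of these 4 genes were at most 20.1 CPM. In liver Slc1a4 was at 0.8 CPM or less in sham mice and R5, and at 3.8 to 4.9 CPM in the paired RYGB mice. It was listed through those RYGB mice alone, as a gene needed 1 CPM in 4 libraries. Its separation in liver is therefore no separate evidence.

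Among growth factor genes, the receptor Egfr fell by 1.12 ± 0.25 in WAT, from 93.6, 85.1, 115.6 and 98.0 CPM to 43.9, 41.5, 72.7 and 28.8 CPM, and rose by 1.83 ± 0.36 in liver, from 238.7, 293.5, 531.4 and 570.2 CPM to 1361.8, 1788.7, 1428.1 and 993.5 CPM, with 2079.1 CPM in R5. The binding protein Igfbp3 fell by 3.04 ± 0.47 in WAT and overlapped in liver. Of 18 genes of insulin, growth hormone and IGF signalling, 4 were lower and 1 higher. Of 17 clock genes, 2 were lower (11.8%, near the 9.51% of all genes) and 0 higher, and the count of 2 was 1 without W15, W3, R2, R3 or R4. Arntl, the partner of CLOCK, rose in liver by 2.13 ± 0.45, from 2.9, 3.1, 2.5 and 5.1 CPM to 16.9, 36.5, 9.3 and 17.0 CPM, with overlap in WAT. Cry2, a repressor of the clock, was called (-2.58 ± 0.68) but did not pass after trend removal (adjusted p = 0.0513, limma).

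**Figure D4:**
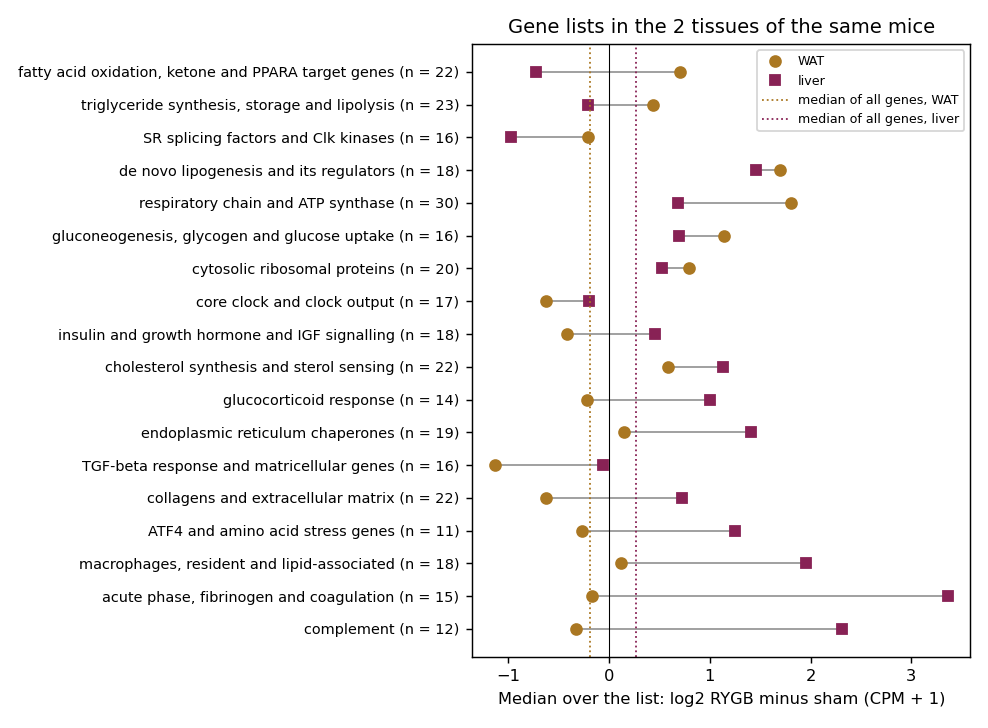
Median RYGB minus sham change of 18 gene lists in WAT (circles) and liver (squares) of the same mice on the log2(CPM + 1) scale, with dotted lines at the medians of all 9707 genes (-0.19 in WAT, 0.27 in liver) and n the number of genes tested. Fatty acid oxidation genes lie to the right in WAT and to the left in liver, and acute phase, complement and macrophage genes lie far to the right in liver.

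In 5 other lists at most 4 genes were called for the tissue difference. In cholesterol synthesis and sterol sensing, 9 of 22 genes rose in WAT and 7 in liver, with 0 falling in either, and 1 was higher (Acat2, 1.39 ± 0.40) and 1 lower (Srebf2, -1.88 ± 0.53, lost after trend removal with an adjusted p of 0.0828, limma). Each is 4.55% of the sterol genes, against 3.37% higher and 9.51% lower of all genes. The lower count was 6 without R1, 2 without W11 and 0 without W15, W3, R2 or R3, and the higher count was 0 when any 1 mouse other than R1 or R3 was left out. Of 14 glucocorticoid response genes 4 were lower (28.6%, against 9.51% of all genes) and 0 higher, and 0 were called in either direction after trend removal. The count of 4 was 0 without W15 or R2, 1 without W3 and 2 without R3. Of 20 cytosolic ribosomal proteins 9 rose in WAT and 2 in liver, and 0 were higher and 2 lower (10%, near the 9.51% of all genes). The count of 2 lower was 5 without R1, 2 without W11 and 0 without any other mouse. Of 19 proteasome genes 13 rose in WAT and 0 in liver, and 0 were called for the difference, but without R1 3 were higher and 2 lower. In SR splicing factors and their kinases, 9 of 16 fell in liver and 3 in WAT, and 2 were higher (12.5%, against 3.37% of all genes), with Srsf11 at 1.66 ± 0.40. The count of 2 was 8 without R1, 0 without W15, W3 or R2, and 1 without any other mouse. Over all genes the changes in the 2 tissues correlated at a Pearson r of 0.23 and a Spearman rho of 0.27. These are across genes, which are not independent replicates, in tissues that share their mice.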

How the data were processed

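RNA was isolated on silica columns and made into PrepX libraries, per the labels. The authors deposited 1 table of CPM per tissue, rounded to 1 decimal, counted with HTSeq on GRCm38 per the submitters' processing notes. Aligner, annotation and strand setting were not given in the sources used here, so antisense, overlapping and near-identical genes may share reads. Every gene had at least 1 CPM in 4 or more libraries of its table. Among the 8 mice, Cidea and Fgf21 reached 1 CPM in liver only in sham mice, and Slc1a4 only in RYGB mice. In WAT, Cyp2c70 and C8a did so only in sham mice, and Marco only in RYGB mice. For other genes too few mice of the low group reached 1 CPM for a listing without the high group. Such genes, listed through RYGB mice, include Scara5, Asns, Lcn2, Marco and Sdf2l1 in liver and Acot1 in WAT. Slc8a1 and Fgf21 in WAT were likewise listed through sham mice. The group difference of these genes in that tissue is no separate evidence, since genes low in both groups were not listed. In WAT 374 repeated lines were dropped, and in liver 6 lines without an identifier were left out.

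From log2(CPM + 1), limma 3.58.1 (R 4.3.3; lmFit, eBayes with trend and robust options) fitted the animal code as a block, tissue, and tissue by surgery, two-sided, with Benjamini-Hochberg adjustment over 9707 genes and a threshold of 0.05. Each tissue was also fitted alone in the same 8 mice. p-values measure the spread between these mice. The pairing comes from codes shared in the labels. Deviations of same-coded libraries from their group means correlated at -0.28 to 0.11. None correlated best with its own code, and the block was kept as planned.

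The comparison, gene lists and named genes were chosen with earlier results of these data known. Named genes are, per direction, the 15 largest called differences with at least 5 CPM in a tissue and no overlap, up to 5 members per list with the smallest adjusted p and 2 with the highest CPM, up to 10 per direction called in both tissues, and a preset group. Of the named genes, 8 (Acadl, Acadm, Acaa1b, Elovl5, Cox5a, Lcn2, Stat3 and C4b) lie outside this and were chosen after their values were seen. Some genes are not reported here. The fit was tested on simulated data. Promoters came from RefSeq tables (GRCm38.p6). Python 3.11.15, pandas 2.3.3 and matplotlib 3.10.9 prepared tables and figures.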

Additional observations from a re-analysis of the deposited data

Results flagged for a closer look

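The change after RYGB differed between WAT and liver, by the tissue by surgery term of limma, for 327 genes that were higher in WAT than in liver and 923 that were lower.

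Within the 4 sham or 4 RYGB mice, the per-mouse value of WAT minus liver, on the log2(CPM + 1) scale, was searched for 1 mouse far from the other 3 (a gap beyond Dixon's 95% limit) in 194 groups of the 97 genes named. Such a gap occurs by chance in about 1 in 20 groups, and 8 were found. In RYGB mice, R2 was high for Ehhadh at 3.09 and low for Slc1a4 at -0.98, R1 was high for C8a at -9.05 and for Xbp1 at 0.75, and R3 was low for Atf4 at 0.37. In sham mice, W15 was high for Acadm at -0.19 and for C4b at 5.19, and low for Srsf11 at -0.30.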

How the results depend on the processing

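The number of genes called for the tissue difference was 1250, and 1415 with no replicate block, so the animal block moved it by less than 1.5 times. It was 3174 with limma's array weights, 420 in the 5 mice with coarse liver values and 2338 in the 3 with fine values (2 sham, 1 RYGB, the lone RYGB mouse being assumed to vary like the others). The last 2 were chosen after seeing the data, as were a term for coarse libraries (1537) and removal of length and GC trends (1410). Leaving out 1 mouse at a time gave 378 to 2189. With a pseudocount of 0.1 it was 869, and with a mean of at least 5 CPM 858.

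The 3555 genes called in WAT ranged from 2191 (without W14) to 4558 (without R3) when 1 mouse was left out, with 2210 without W15. The 994 called in liver became 506 with all 9 libraries and 4710 with array weights, and 26 to 3217 when 1 mouse was left out, with 26 without W3 and 44 without W15.

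Of the 97 genes named, 89 were called, and all 89 kept their sign in the settings run for them. 49 were called in every one of those settings, 89 after scaling, 86 after trend removal and 65 in the 5 mice with coarse liver values. The fewest calls were for Fgf21 (8 of 17 settings), Dnajb9 and Acat2 (8 of 18) and Hspa5 (9 of 18). Acaca, not called, was -0.23 with a pseudocount of 0.1 and ran from -0.31 to 0.80 with 1 mouse left out. The depth of the libraries with fine values is unknown, so no interval from counts was given.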
